A study of Mus musculus with 12 samples.

Results

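The 8 genes described here encode the parts of the major histocompatibility complex (MHC) class II pathway that bind, load and present peptides, and the activator of their transcription. They are the invariant chain Cd74, the classical chains H2-Aa, H2-Ab1 and H2-Eb1, the peptide-loading chains H2-DMa, H2-DMb1 and H2-DMb2, and Ciita. All probes that the platform's probe table assigns to these genes were taken, which gave 15 of the 45281 probes on the array, and all 15 passed the detection filter that kept 22359 probes. At the gene level they are 8 of 11933 genes tested. Transcripts were measured on Illumina bead arrays in colon samples from male mice aged 7 to 8 weeks, with 3 arrays in each of 4 groups: DAPP given before DSS, DAPP given during DSS, DSS alone, and control. DSS is dextran sulfate sodium, which damages the colonic epithelium when given to mice and serves as a model of colitis. DAPP is the labels' abbreviation, in a series whose title concerns apple peel polyphenols. The DAPP groups also received DSS, and their columns in the deposited table are marked 200 (DAPP before DSS) or 400 (DAPP during DSS), without a unit, so that timing and this number cannot be told apart. The sources used here do not give the strain, the vehicle or the durations. The groups answer whether DSS alters these transcripts in the colon, and whether either DAPP schedule leaves them different from DSS alone.

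MHC class II molecules display peptides from engulfed material to CD4+ T cells. Dendritic cells, macrophages and B cells make them at a high level, and interferon gamma, which T cells and natural killer cells release, induces them in other cells, intestinal epithelium included. The alpha and beta chains pair in the endoplasmic reticulum around the invariant chain, which blocks the groove. In endosomes the invariant chain is cut away, and the H2-DM heterodimer removes its last fragment so that a peptide can bind. CIITA, the protein of Ciita, does not bind DNA itself. It is recruited by factors sitting on the X and Y boxes, short sequences found together just ahead of class II genes.

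The promoters of H2-Eb1, H2-DMb1, H2-Aa and H2-DMb2 are shown because they carry matches to the X or Y box in the RefSeq promoter window, and because H2-DMb1 is the member that passed the test below. The 6 class II chain genes on chromosome 17 lie within 34119693 to 34316674 of the RefSeq assembly GRCm38.p6. Ciita lies on chromosome 16 (10480014 to 10531064). RefSeq promoter windows, each 250 bases before to 50 bases after a start site, were at hand for H2-Eb1 (chr17:34305617-34305916, plus strand), H2-DMb1 (chr17:34152941-34153240, plus strand), H2-Aa (chr17:34287774-34288073, minus strand), H2-DMb2 (chr17:34144999-34145298, plus strand) and, with 2 start sites, H2-DMa. The start sites of H2-Eb1, H2-DMb1 and H2-Aa are those of their RefSeq gene records, whereas those of H2-DMb2 and H2-DMa lie inside the gene record (which begins at 34143229 for H2-DMb2 and 34119693 for H2-DMa), and the distances below are from the start site of the window. The Y box core ATTGG, a longer form of it, CTGATTGG, which contains the core, and a consensus of the X box were searched on both strands. Capitals mark the matches, and all sequences read 5′ to 3′ on the gene's strand.
H2-Eb1: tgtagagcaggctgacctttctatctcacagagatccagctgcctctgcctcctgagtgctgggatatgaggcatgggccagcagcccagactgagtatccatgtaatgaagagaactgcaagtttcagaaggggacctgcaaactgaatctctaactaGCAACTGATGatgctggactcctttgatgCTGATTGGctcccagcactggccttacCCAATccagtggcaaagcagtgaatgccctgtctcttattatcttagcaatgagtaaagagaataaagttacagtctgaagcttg
H2-DMb1: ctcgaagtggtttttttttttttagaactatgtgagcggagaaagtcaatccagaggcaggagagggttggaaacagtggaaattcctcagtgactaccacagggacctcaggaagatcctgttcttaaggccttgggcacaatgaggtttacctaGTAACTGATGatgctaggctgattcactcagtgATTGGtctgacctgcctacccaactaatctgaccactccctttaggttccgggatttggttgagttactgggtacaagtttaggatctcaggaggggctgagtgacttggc
H2-Aa: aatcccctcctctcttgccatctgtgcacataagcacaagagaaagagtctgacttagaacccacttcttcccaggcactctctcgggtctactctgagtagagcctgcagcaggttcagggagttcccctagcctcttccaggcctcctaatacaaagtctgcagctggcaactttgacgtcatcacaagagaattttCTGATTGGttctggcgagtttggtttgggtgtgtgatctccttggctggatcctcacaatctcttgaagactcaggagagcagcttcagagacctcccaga
H2-DMb2: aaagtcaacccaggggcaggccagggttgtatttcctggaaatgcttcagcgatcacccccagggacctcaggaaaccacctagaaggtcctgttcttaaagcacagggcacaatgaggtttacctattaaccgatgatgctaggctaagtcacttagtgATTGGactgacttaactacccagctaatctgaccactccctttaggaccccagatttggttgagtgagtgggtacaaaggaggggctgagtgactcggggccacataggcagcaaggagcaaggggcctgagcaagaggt
In H2-Eb1 the X box match GCAACTGATG begins 91 bases before the start site and CTGATTGG 62 bases before it, with a further core on the opposite strand 35 bases before it. H2-DMb1 has the X box match GTAACTGATG 94 bases and the Y box core 61 bases before the start. H2-Aa holds CTGATTGG 51 bases before the start and H2-DMb2 the core alone, 90 bases before the start, neither with a match to the X box consensus. In 1 of the H2-DMa windows the core stands 198 bases before the start, and the other window has no match. Of 32851 mouse promoter windows of this length, 37.4% hold the Y box core, 4.1% the longer form, 2.51% the X box and 1.12% both the X box and the core. These matches are a description of the letters and say nothing of which factor was bound in these colons.

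Levels are log2 intensities after background correction and quantile normalisation, and values of different probes are not comparable with each other as amounts. An array had 17650 to 21444 detected probes. Raw signal averaged 601 to 728 on the DAPP arrays, against 433 to 507 on the DSS and control arrays. Replicate 1 of DAPP before DSS stood apart, with correlations over genes of 0.828 to 0.914 with the remaining arrays. The tissue label was checked with 8 colon epithelium markers, whose mean level was 11.2 to 12.4 with DAPP before DSS, 12.3 to 12.4 with DAPP during DSS, 11.9 to 12.4 with DSS and 12.5 to 12.6 in controls. The labels call the arrays of a group biological replicates without saying that each is a separate mouse, and the p-values below measure the spread between these samples. In whole colon, more cells of a type and more RNA per cell cannot be told apart.

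The transcript of the invariant chain stood higher on every DSS array than on every control array, by close to 1 log2 unit in the group means. Cd74 read 11.08, 12.46 and 12.93 in replicates 1, 2 and 3 of DAPP before DSS, 12.29, 12.80 and 12.87 with DAPP during DSS, 13.20, 12.30 and 12.49 with DSS, and 11.71, 11.55 and 11.78 in controls. Replicate 1 of DAPP before DSS lay under all controls, while the other two arrays of its group lay within the range of DSS. The DSS mean was 12.66 ± 0.48 and the control mean 11.68 ± 0.12 (SD, n = 3 each), a difference of 0.98 ± 0.41 (SE) with a limma adjusted p of 0.2. The other two Cd74 probes, which the platform's annotation ties to another transcript of the gene, gave differences of 1.08 ± 0.42 and 1.26 ± 0.63 (SE), likewise with DSS above control on every array.

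The classical chains form the peptide-binding molecule itself: H2-Aa and H2-Ab1 encode the alpha and beta chains of I-A, and H2-Eb1 the beta chain of I-E. H2-Aa read 12.04, 10.84 and 11.86 with DAPP before DSS, 10.94, 11.79 and 11.97 with DAPP during DSS, 11.97, 11.20 and 11.02 with DSS, and 10.64, 10.36 and 10.79 in controls. On the array where Cd74 was lowest, replicate 1 of DAPP before DSS, H2-Aa was at its highest. H2-Ab1 read 11.43, 11.92 and 12.85 with DAPP before DSS, 11.94, 12.25 and 12.82 with DAPP during DSS, 13.10, 11.89 and 12.17 with DSS, and 11.28, 11.35 and 11.52 in controls. H2-Eb1 read 10.86, 10.73 and 11.70 with DAPP before DSS, 10.66, 11.08 and 11.68 with DAPP during DSS, 12.07, 10.91 and 10.90 with DSS, and 10.28, 10.51 and 10.53 in controls. In all of these genes every DSS array lay above every control array, and replicate 1 of DSS was the highest of its group. The differences between DSS and control were 0.80 ± 0.37 for H2-Aa, 1.01 ± 0.39 for H2-Ab1 and 0.85 ± 0.37 for H2-Eb1 (SE), with limma adjusted p of 0.264, 0.168 and 0.222. The other two H2-Ab1 probes gave 1.07 ± 0.63 and 0.96 ± 0.43 (SE).

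The peptide-loading chains included the member with the largest difference. H2-DMb1, a beta chain of the DM heterodimer, read 8.73, 8.08 and 9.33 with DAPP before DSS, 8.31, 8.79 and 9.47 with DAPP during DSS, 9.84, 8.62 and 8.70 with DSS, and 7.18, 7.43 and 7.41 in controls. All 9 arrays of the DSS-exposed groups lay above all control arrays. It rose with DSS to 9.05 ± 0.69, against 7.34 ± 0.14 in controls (SD, n = 3 each), which is 3.28-fold (95% interval 1.79 to 6.01) with a limma adjusted p of 0.0231. The call was lost when 1 array was left out in several cases. With replicate 1 of DSS left out the difference was 1.32 (limma adjusted p = 0.0997), and with control replicate 1, 2 or 3 left out it was 1.63, 1.76 or 1.75 (limma adjusted p = 0.0871, 0.0674 or 0.072).

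H2-DMa, the DM alpha chain, read 9.26, 9.20 and 10.37 with DAPP before DSS, 9.21, 9.76 and 10.28 with DAPP during DSS, 10.79, 9.45 and 9.59 with DSS, and 8.60, 8.83 and 9.04 in controls. H2-DMb2, the second beta chain gene, read 7.87, 8.11 and 9.20 with DAPP before DSS, 8.16, 8.79 and 9.31 with DAPP during DSS, 9.96, 8.43 and 8.47 with DSS, and 7.21, 7.68 and 7.96 in controls. In both genes DSS and control arrays did not overlap, with differences of 1.12 ± 0.41 for H2-DMa and 1.34 ± 0.47 for H2-DMb2 (SE) and limma adjusted p of 0.148 and 0.125. The second H2-DMa probe gave 1.26 ± 0.40 (SE). The second H2-DMb2 probe read 6.26, 5.42 and 6.85 with DAPP before DSS, 5.28, 6.47 and 6.56 with DAPP during DSS, 7.36, 5.91 and 6.38 with DSS, and 6.62, 6.23 and 6.34 in controls. Its groups overlapped and its difference between DSS and control was 0.16 ± 0.45 (SE), so the probes of this gene disagree. H2-DMb1 and H2-DMb2 are close copies, and whether a probe for one also binds the transcript of the other was not tested.

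The 2 probes of Ciita, the activator that sets class II transcription, were not detected on every array. Probe 1 read 5.83, 6.31 and 7.80 with DAPP before DSS, 6.68, 7.14 and 7.64 with DAPP during DSS, 8.24, 6.06 and 6.99 with DSS, and 5.89, 5.53 and 6.79 in controls. It was detected on 11 of 12 arrays, control replicate 2 being the exception, and the groups overlapped, replicate 2 of DSS lying below control replicate 3. The difference between DSS and control was 1.03 ± 0.59 (SE, 95% interval -0.25 to 2.31, limma adjusted p = 0.382). Probe 2, detected on 9 arrays, gave 0.27 ± 0.55 (SE).

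**Figure D1:**
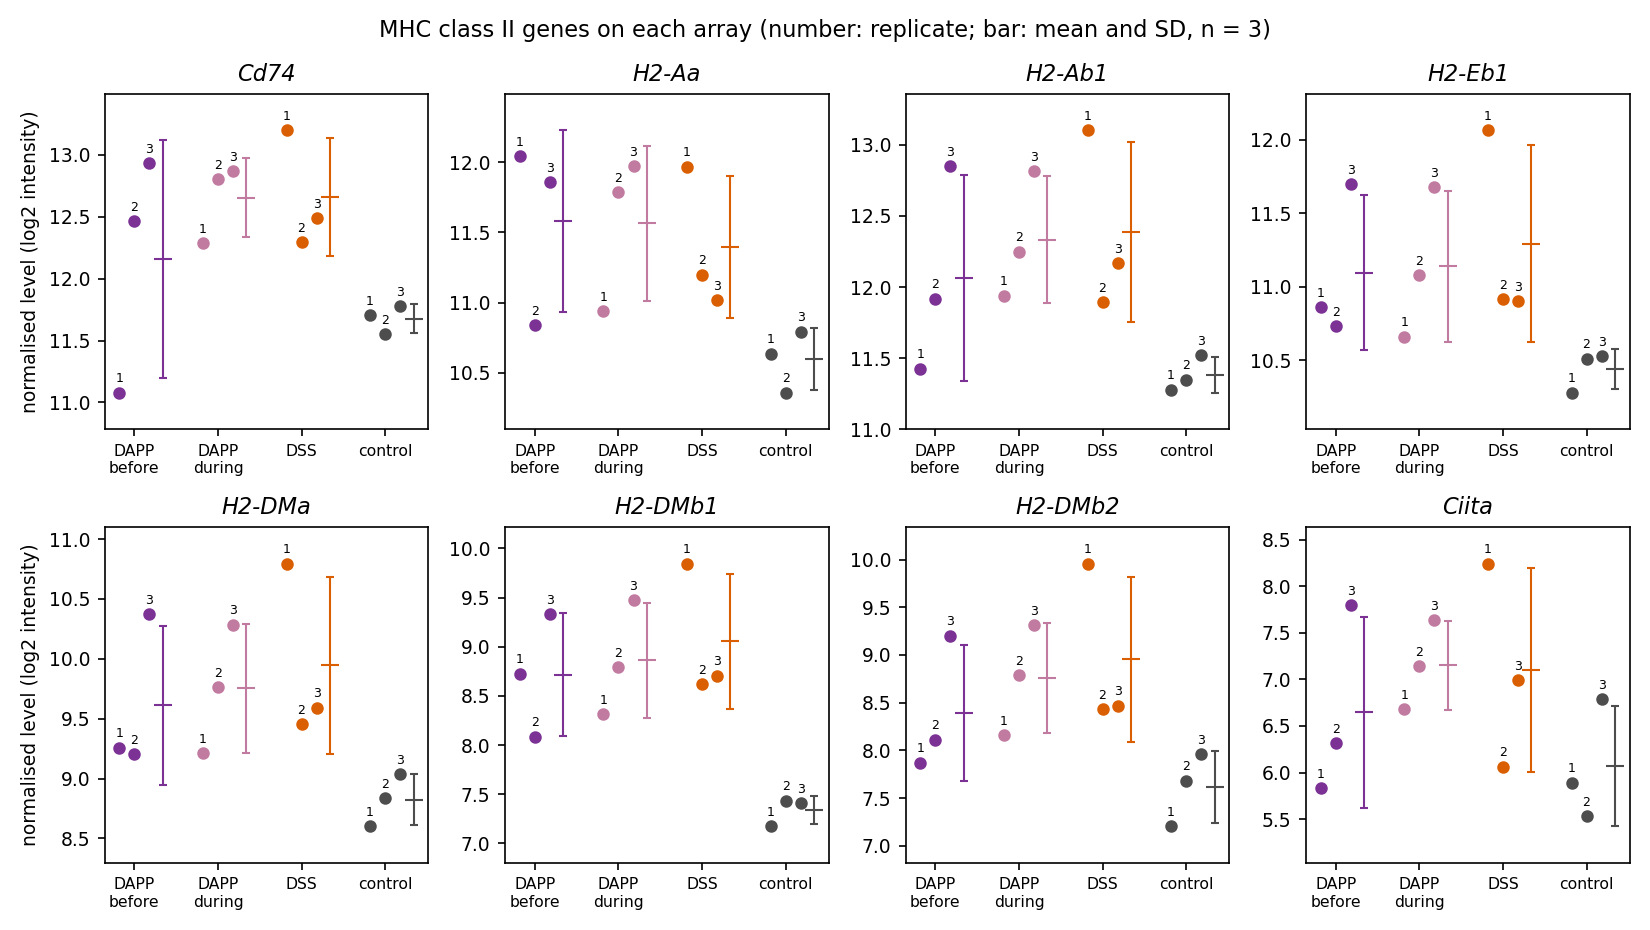
Normalised log2 intensity (vertical axis) of each MHC class II gene on each array, by group (horizontal axis), with the replicate number above each point and the mean ± SD of 3 arrays beside it. Replicate 1 of DSS is the highest DSS array in all 8 panels, and replicate 1 of DAPP before DSS is the lowest array for Cd74 (11.08) and the highest for H2-Aa (12.04).

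Read as a list, the class II genes lay above control with DSS. All 8 differences were positive, where 45.5% of all genes had a positive one, and the median difference was 1.02 for the members and -0.04 for all genes. DSS and control arrays did not overlap in 7 of the 8, with DSS above, against 13.8% of all genes in that direction. By limma, 6 of 8 had an unadjusted p under 0.05, against 19.7% of all genes in either direction, and 1 of 8, H2-DMb1, was called at an adjusted p under 0.05, against 6.71% of all genes called in either direction and 3.91% called higher. Over the 15 probes, all 15 differences were positive, 12 had DSS above control on every array, and 1 was called, against 4.7% of all kept probes called. The positive and non-overlap counts over probes have no share of all kept probes beside them, and genes with several probes enter them more than once. The size rested in part on 1 array: with replicate 1 of DSS left out, the member median was 0.67, all 8 differences stayed positive (0.46 to 1.32), and none was called by limma while 3.61% of all genes were. With replicate 1 of DAPP before DSS left out and the arrays renormalised and refitted, Cd74 was called too (0.98, limma adjusted p = 0.0288), as were 12.8% of all genes.

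**Figure D2:**
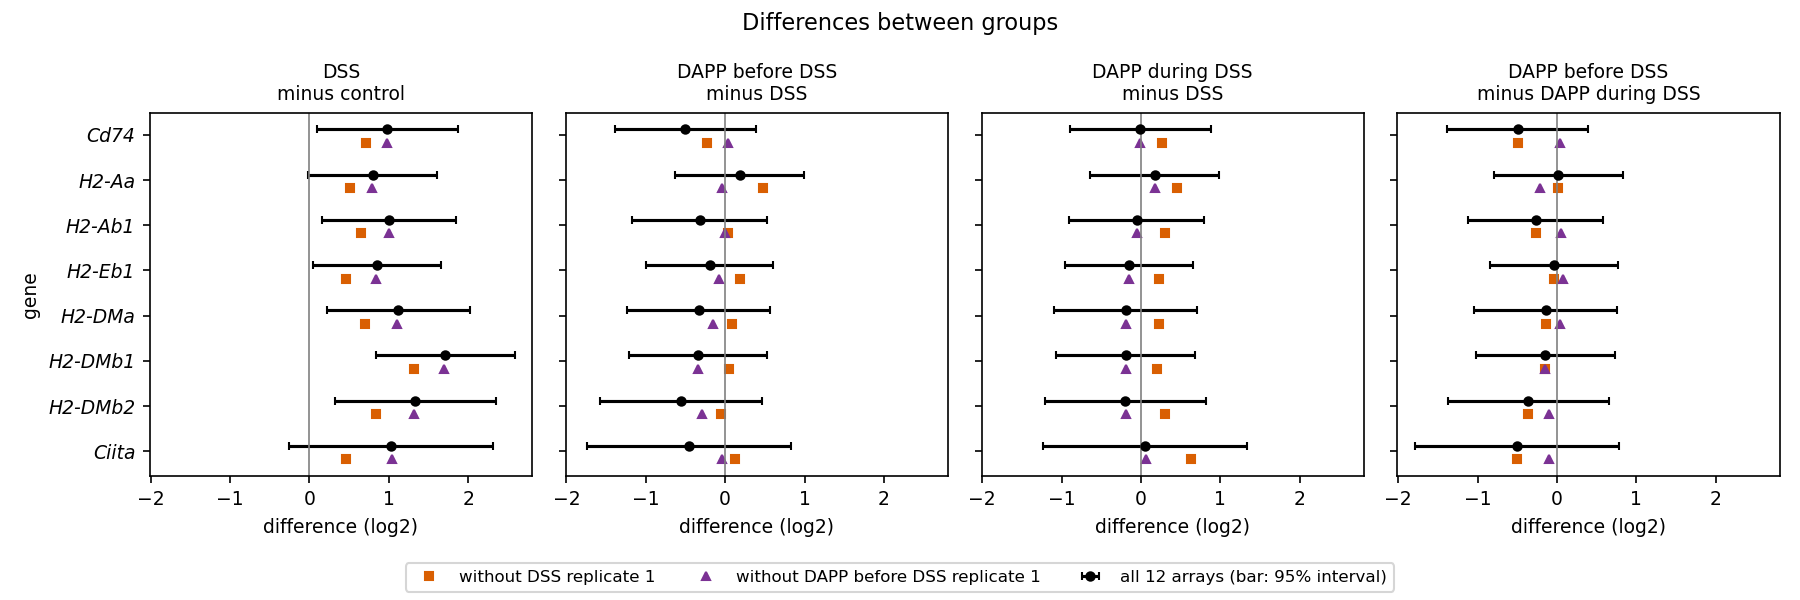
Difference in log2 intensity (horizontal axis) of each MHC class II gene in 4 comparisons, with the 95% interval from limma over all 12 arrays and the values without replicate 1 of DSS or of DAPP before DSS. In the panel of DSS minus control all points lie right of 0, and in the panels that set DAPP against DSS all intervals include 0 and several points change side without 1 array.

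The arrays within each group given DSS were spread out. Relative to the control mean, the median member stood at 0.34, 0.44 and 1.51 on replicates 1, 2 and 3 of DAPP before DSS, at 0.55, 1.10 and 1.45 with DAPP during DSS, and at 1.84, 0.61 and 0.80 with DSS. Replicate 1 of DSS and replicate 3 of each DAPP group were the high arrays of their groups. On replicate 1 of DSS the 8 members lay between 1.37 and 2.50 above the control mean, and each of the 15 probes exceeded the mean of the other two DSS arrays, by 0.78 to 1.71.

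Replicate 1 of DAPP before DSS was uneven across members. There 4 of 8 members lay above all controls and 1 below all controls, where 41.2% of all genes lay above and 41.7% below. The members spanned -0.60 to 1.45 relative to the control mean, a range of 2.04. The range was 0.54 on replicate 2 and 0.74 on replicate 3. All genes were spread wider there too, with an SD of 1.31 relative to the control mean, against 0.86 on replicate 2 and 0.87 on replicate 3. Its Cd74 probes 1 and 3 read 11.08 and 7.02, against 11.55 to 11.78 and 8.21 to 8.60 on the control arrays, and probe 2 lay below its control range of 11.31 to 11.60 as well. Its H2-Ab1 probes read 11.43, 9.17 and 9.52, so that probe 1 lay within the control range (11.28 to 11.52) while probes 2 and 3 lay below all controls (lowest at 10.61 and 9.91). H2-Aa and H2-DMb1 stood 1.45 and 1.39 above the control mean on that array. The H2-Ab1 probes therefore disagreed on that array.

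**Figure D3:**
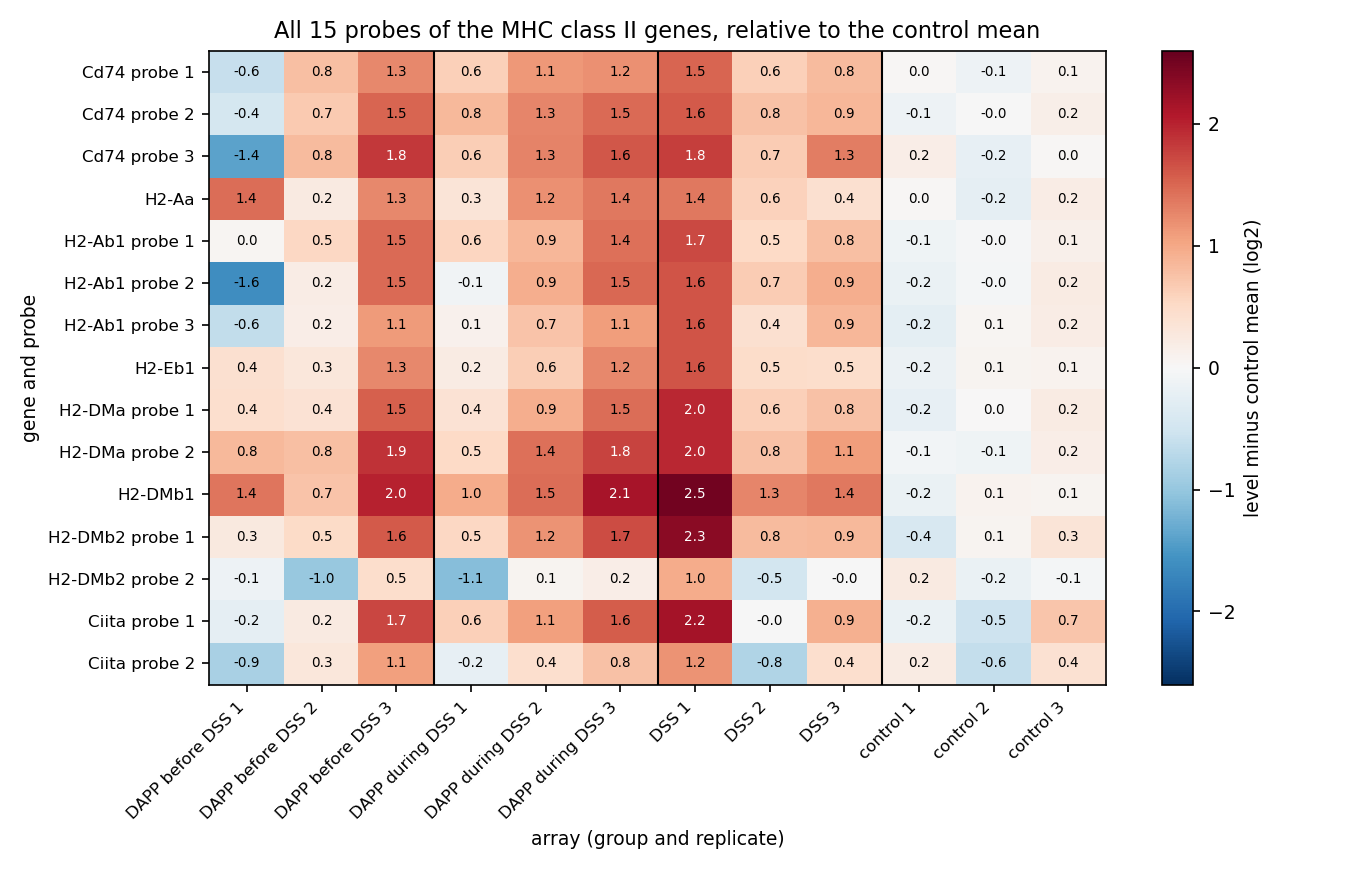
Level of each of the 15 probes minus the mean of the control arrays for that probe (log2, colour scale and printed values; rows are probes, columns are arrays ordered by group). Replicate 1 of DSS is positive in every row, and replicate 1 of DAPP before DSS runs from -1.61 for H2-Ab1 probe 2 to 1.45 for H2-Aa.

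No class II member was called between either DAPP group and DSS alone, and every 95% interval of a difference included 0. With DAPP before DSS the differences from DSS ran from -0.56 to 0.19 with a median of -0.34, where all genes had a median of 0.00 and 50.3% of them a positive difference. By limma 0 of 8 members were called at the adjusted threshold (0% of all genes called) and 0 of 8 had an unadjusted p under 0.05, against 4.48% of all genes. The adjusted p ran from 0.851 to 0.918 by limma. The groups overlapped in every member, whereas 3.71% of all genes lay higher and 2.77% lower on every array. Cd74 averaged 12.16 ± 0.96 with DAPP before DSS and 12.66 ± 0.48 with DSS (SD, n = 3 each), a difference of -0.50 ± 0.41 (SE, 95% interval -1.39 to 0.38), and of 0.03 without replicate 1 of DAPP before DSS. H2-Aa, the 1 member with a positive difference, was at 0.19 ± 0.37 (SE, 95% interval -0.63 to 1.00). The member median was 0.07 without replicate 1 of DSS and -0.06 without replicate 1 of DAPP before DSS, so that 1 array turned its sign or took most of its size.

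With DAPP during DSS the differences from DSS ran from -0.20 to 0.17 with a median of -0.10, and limma called 0 of 8 (0% of all genes), with 0 of 8 at an unadjusted p under 0.05 against 2.66% of all genes. Of the differences 2 of 8 were positive, against 50.5% of all genes. The groups overlapped in every member, whereas 6.09% of all genes lay higher and 5.22% lower on every array. Cd74 averaged 12.65 ± 0.32 with DAPP during DSS and 12.66 ± 0.48 with DSS (SD, n = 3 each), and the 95% interval of the difference was -0.90 to 0.88. For H2-DMb1 the interval was -1.07 to 0.68, for H2-Ab1 -0.90 to 0.79 and for Ciita -1.23 to 1.34, and these intervals bound what the 3 arrays of each group could show. The member median turned to 0.28 without replicate 1 of DSS. It turned to 0.25 with arrays scaled to equal medians in place of quantiles, a scaling under which the median of all genes itself moved to 0.35.

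Between the DAPP groups, DAPP before minus DAPP during DSS, the differences ran from -0.51 for Ciita to 0.01 for H2-Aa with a median of -0.21. Limma called 0 of 8 (0% of all genes) and 0 of 8 had an unadjusted p under 0.05, against 4.06% of all genes. Among the differences 1 of 8 was positive, against 48.6% of all genes, and the groups overlapped in every member, where 4.05% of all genes lay higher and 3.85% lower on every array. The median was -0.03 without replicate 1 of DAPP before DSS. Timing, the number in the column names and the spread of that array all enter this comparison.

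Set against control, both DAPP groups had H2-DMb1 above it and the other members positive but not called. H2-DMb1 averaged 8.71 ± 0.62 with DAPP before DSS and 7.34 ± 0.14 in controls (SD, n = 3 each), 2.59-fold with a limma adjusted p of 0.0466. With DAPP during DSS it averaged 8.86 ± 0.58, which is 2.87-fold over control with a limma adjusted p of 0.038. DAPP before DSS thus had 1 of 8 members called (11.2% of all genes in either direction, 6.27% higher), 2 of 8 at an unadjusted p under 0.05 (26.4%), 4 of 8 above control on every array (14% of all genes) and 8 of 8 positive (45.8%). Its median was 0.73 (0.99 without its replicate 1), from 0.48 for Cd74 to 1.37 for H2-DMb1. In the fit over probes 0 of its 15 probes were called (8.12% of all kept probes). Of these 15, 14 had a positive difference and 5 lay above control on every array. H2-DMb2 probe 2 was at -0.22, and H2-Ab1 probes 2 and 3 were at 0.01 and 0.21, against 0.68 for probe 1. DAPP during DSS had 1 of 8 called (7.68% of all genes, 4.53% higher), 6 of 8 at an unadjusted p under 0.05 (20.7%), 7 of 8 above control on every array (18.8%) and 8 of 8 positive (46.7%). Its median was 0.97, from 0.70 for H2-Eb1 to 1.52 for H2-DMb1, and 1 of its 15 probes was called (5.59%). Of these 15, 14 had a positive difference and 10 lay above control on every array, with H2-DMb2 probe 2 at -0.29. For both DAPP groups the positive and non-overlap counts over probes stand without a share of all kept probes. These comparisons share the control arrays with each other and with DSS against control. For DAPP before DSS the H2-DMb1 call was lost without its own replicate 1 (1.36, limma adjusted p = 0.0742) or 3 (1.06, limma adjusted p = 0.119), without control replicate 1, 2 or 3 (1.29 to 1.42, limma adjusted p = 0.108 to 0.136), and without DSS replicate 2 or 3 or DAPP during DSS replicate 2 (limma adjusted p = 0.0507, 0.0541 and 0.0675). Without its replicate 1, Cd74 was called in DAPP before DSS (1.01, limma adjusted p = 0.04), and without its replicate 2, H2-Aa was (1.36, limma adjusted p = 0.0301). For DAPP during DSS the H2-DMb1 call was lost without its replicate 2 (1.55, limma adjusted p = 0.11) or 3 (1.21, limma adjusted p = 0.154) and without control replicate 1, 2 or 3 (1.44 to 1.57, limma adjusted p = 0.1 to 0.127), and Cd74 joined it without replicate 1 of DAPP before DSS (0.97, limma adjusted p = 0.028).

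Read at 1 probe per gene, the 8 members moved largely together across arrays. Pearson correlations between pairs of members ran from 0.449 (Cd74 with H2-Aa) to 0.990 over the 12 arrays, with a median of 0.887. Over the 11 arrays without replicate 1 of DAPP before DSS they ran from 0.859 to 0.992 with a median of 0.932. The points share treatment groups and whatever sets the RNA makeup of a sample, so these are descriptions of 12 arrays.

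Class II genes outside the 8 were not called. H2-Oa and H2-Ob encode the DO heterodimer, which restrains DM and is made chiefly in B cells. H2-Oa read 9.94, 6.32 and 7.66 with DAPP before DSS, 6.47, 7.24 and 7.08 with DAPP during DSS, 8.32, 6.81 and 6.91 with DSS, and 6.91, 6.81 and 7.77 in controls. H2-Ob read 8.82, 5.33 and 6.79 with DAPP before DSS, 5.82, 7.01 and 6.63 with DAPP during DSS, 6.96, 5.47 and 5.24 with DSS, and 7.00, 6.23 and 6.90 in controls. On these probes both were highest on replicate 1 of DAPP before DSS, and DSS and control arrays overlapped. A second H2-Oa probe, detected on 11 arrays, was instead highest on replicate 1 of DSS (7.28) and read 6.55 on replicate 1 of DAPP before DSS. Limma called 0 of the 3 tested genes (H2-Oa, H2-Ob and H2-Eb2) in any comparison. Between DSS and control 0 of 3 had an unadjusted p under 0.05, against 19.7% of all genes, and their median difference was -0.12. H2-Ea was detected on 0 of 12 arrays.

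Among the transcription factors of class II genes, 1 of 10 tested was called between DSS and control, against 6.71% of all genes in either direction and 3.91% higher: Irf8, a factor of myeloid and B cells. Irf8 averaged 9.72 ± 0.29 with DSS and 8.80 ± 0.14 in controls (SD, n = 3 each), 1.89-fold with a limma adjusted p of 0.0338, and it was not called without replicate 1 of DSS. It was called in DAPP before DSS (2.41-fold over control, limma adjusted p = 0.00443; 2.33-fold without its replicate 1) and in DAPP during DSS (2.17-fold, limma adjusted p = 0.0116) as well. The list median was 0.12 between DSS and control. The remaining 9, none called, include Nfya, Nfyb and Nfyc (the Y box factor), Rfxank and Rfxap (parts of the X box factor) and Irf1. Irf1, which interferon gamma induces, differed by 0.16 ± 0.27 (SE, limma adjusted p = 0.826). Rfxank was not detected on the DSS arrays and detected on 2 of 3 control arrays, where it was at least 1.36-fold higher (limma adjusted p = 0.135). Rfx5 passed no detection filter.

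Interferon gamma itself was detected on all 3 DSS arrays and on 0 of 3 control arrays. Ifng read 4.81 to 6.14 with DAPP before DSS, 4.72 to 5.72 with DAPP during DSS, 5.58 to 6.77 with DSS and 4.55 to 4.96 in controls, and it was detected on 1 of 3 arrays in each DAPP group. It was at least 1.41-fold higher with DSS than in controls, where the bound sets the DSS mean against the lowest detected signal of the control arrays, and limma gave an adjusted p of 0.0945. Relative to DSS it was not called with either DAPP schedule (limma adjusted p = 0.851 with DAPP before DSS and 1.00 with DAPP during DSS). The receptor chains Ifngr1 and Ifngr2 had differences of -0.11 and 0.00 between DSS and control. Of the 7 tested genes of interferon gamma receptor signalling 0 were called by limma, against 6.71% of all genes. Of these 7, 2 had an unadjusted p under 0.05, against 19.7% of all genes, and the list median was 0.32. With replicate 1 of DAPP before DSS left out, Socs1, a feedback inhibitor of the pathway, was called, and so was a larger share of all genes.

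Genes that interferon gamma induces were read next. Of 11 tested, 6 were called higher by limma, where 3.91% of all genes were, with a list median of 1.69. Ido1, which degrades tryptophan, averaged 12.57 ± 0.62 with DSS and 7.14 ± 0.29 in controls (SD, n = 3 each), 43.0-fold with a limma adjusted p of 7.84e-05. Cxcl9, a chemokine for activated T cells, averaged 11.08 ± 1.57 with DSS and 5.83 ± 0.29 in controls, 38.1-fold (limma adjusted p = 0.00197). Igtp, an immunity-related GTPase, was 4.90-fold higher, the peptide transporter Tap1 4.86-fold, and the immunoproteasome subunits Psmb8 and Psmb9 3.23-fold and 2.97-fold. With replicate 1 of DSS left out, 3 were called (Cxcl9, Ido1 and Tap1), with a median of 1.43. With replicate 1 of DAPP before DSS left out, 8 were called. A smaller share of all genes was called in the former case and a larger share in the latter. Against control, 5 of 11 were called higher with DAPP before DSS (6.27% of all genes) and 4 of 11 with DAPP during DSS (4.53%). Without replicate 1 of DAPP before DSS these were 7 and 8 of 11, and the shares of all genes in that fit are not given here. Against DSS limma called 0 of 11 with either schedule (0% of all genes), with medians of -0.33 in both. With either schedule 0 of 11 had an unadjusted p under 0.05, against 4.48% of all genes with DAPP before DSS and 2.66% with DAPP during DSS.

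Other steps of presentation followed, to be read against the same 3.91% of all genes called higher with DSS. Against control, the share of all genes called higher was 6.27% with DAPP before DSS and 4.53% with DAPP during DSS. Of 9 genes of class II antigen processing, Lgmn, an endosomal protease that cuts the invariant chain, was called between DSS and control (3.54-fold, limma adjusted p = 0.0183), and the list median was 0.40. Ctsb, another endosomal protease, was called in DAPP during DSS against control (1.58-fold, limma adjusted p = 0.0353). Of 8 genes of surface turnover and costimulation, Cd274 (the ligand of PD-1; 3.52-fold, limma adjusted p = 0.0346) and Cd80 (a costimulatory ligand for T cells; at least 1.92-fold, limma adjusted p = 0.0169) were called. Marchf1, a ubiquitin ligase that lowers surface class II, read 9.14, 6.93 and 7.16 with DAPP before DSS and 5.76, 5.33 and 5.20 in controls, where 1 of 3 arrays detected it. Its difference of 2.31 ± 0.54 (SE) between those groups was called (limma adjusted p = 0.0162), and it was 1.64 without replicate 1 of DAPP before DSS (limma adjusted p = 0.0222). Of 14 MHC class I presentation genes 4 were called with DSS: Psmb8, Psmb9, Tap1 and Nlrc5, the class I counterpart of Ciita, which was at least 4.13-fold higher (limma adjusted p = 0.0131). Nlrc5 was not detected in controls, and whether its change differed from that of Ciita was not tested. Leaving out replicate 1 of DSS, limma called 0 of 9 processing genes, 0 of 8 of the surface list and 2 of 14 of the class I list. Leaving out replicate 1 of DAPP before DSS in its place, it called 1 of 9, 4 of 8 and 6 of 14. Of all genes, a smaller share was also called without replicate 1 of DSS and a larger share without replicate 1 of DAPP before DSS. The lists of interferon-induced and class I genes share Psmb8, Psmb9 and Tap1.

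Markers of macrophages, dendritic cells and B cells, which carry class II, were read beside these genes. T cell, neutrophil, lymphoid stroma and colon epithelium lists were read with them. Between DSS and control 3.91% of all genes were called higher, 6.71% were called in either direction and 19.7% had an unadjusted p under 0.05. Of 11 macrophage and monocyte markers tested, 6 were called higher with DSS (C1qa, C1qb, C1qc, Cd163, Fcgr1 and Ccr2), with a median difference of 1.33, and the mean of the list was 9.18 to 9.46 with DAPP before DSS, 9.27 to 9.45 with DAPP during DSS, 8.88 to 9.61 with DSS and 7.78 to 8.01 in controls. Of 4 T cell markers 3 were called (Cd3d, Cd3e and Thy1), with a median of 1.80. Cd4, Cd8a and Cd5 passed no detection filter, and Lck, Trac and Trbc1 had no probe. Limma called 0 of 5 dendritic cell markers (2 of 5 at an unadjusted p under 0.05), with a median of 0.38 and the largest difference in Ccr7, the receptor for lymph node homing (1.00 ± 0.33, SE), and Itgax, Flt3, Xcr1, Clec9a and Cd209a passed no detection filter. It also called 0 of 5 B cell markers (0 of 5 unadjusted), with a median of -0.07 and the largest difference in Blk, a B cell kinase (0.50 ± 0.72, SE), and Ms4a1, Pax5, Cr2 and Bank1 passed no detection filter. The B cell mean was 6.14 to 8.51 with DAPP before DSS, 6.13 to 6.79 with DAPP during DSS, 6.14 to 7.60 with DSS and 5.98 to 7.21 in controls. Cd79b, part of the B cell receptor, read 11.25 on replicate 1 of DAPP before DSS and 7.88 to 9.52 on the other arrays. Of 7 neutrophil genes limma called 5 (median 2.58): S100a9 and S100a8, the chains of calprotectin, with differences of 7.10 ± 0.42 and 6.85 ± 0.37 (SE), Retnlg (6.53 ± 0.46), Csf3r, the receptor for granulocyte colony-stimulating factor (at least 3.71-fold), and the chemokine receptor Cxcr2 (at least 2.74-fold). Of 6 genes of lymphoid tissue stroma and chemokines it called 3 (median 1.28): Cxcl13, a chemokine for B cells, 11.9-fold higher, Ccl19, a ligand of Ccr7, 3.31-fold higher, and the vascular addressin Madcam1, at least 2.27-fold higher. Of 8 colon epithelium genes it called 0 (median -0.33, 1 of 8 unadjusted), the largest difference being -1.25 ± 0.45 (SE) in Slc26a3, an anion exchanger of the colon surface. The calls without replicate 1 of DSS were 4 of 11 macrophage, 1 of 4 T cell, 4 of 7 neutrophil and 1 of 6 lymphoid stroma genes. Without replicate 1 of DAPP before DSS, 1 of 5 dendritic cell markers was called. The share of all genes called also fell without replicate 1 of DSS and rose without replicate 1 of DAPP before DSS. The part of cell numbers in the class II differences was not tested.

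Genes of the exocrine pancreas varied widely between arrays. The mean of 12 exocrine pancreas genes was 12.5 to 14 with DAPP before DSS, 6.24 to 14.4 with DAPP during DSS, 6.61 to 14.1 with DSS and 6.55 to 8.37 in controls, and replicate 1 of DSS, the highest class II array, was the DSS array at 6.61. Not all of the list was low in controls, where Cela1 read 13.19, 13.22 and 13.59 and Clps 11.33, 10.25 and 9.77, and the source of these transcripts was not tested. With this mean as a covariate the differences between DSS and control were 1.83 ± 0.48 for H2-DMb1 (SE, limma adjusted p = 0.054) and 1.22 for Cd74, and 0 of 8 members were called. Without it they were 1.71 ± 0.40 (SE) and 0.98, and the remaining members with it are not given here. The mean was low on all control arrays and high on replicates 2 and 3 of DSS, so this fit cannot fully separate it from DSS. Limma called 0 of the 12 pancreas genes between DSS and control (6.71% of all genes), and 5 of 12 without replicate 1 of DSS, where a smaller share of all genes was called. Of the 12, 7 had an unadjusted p under 0.05, against 19.7% of all genes. The largest difference was 5.38 ± 2.27 (SE), in the elastase gene Cela2a.

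**Figure D4:**
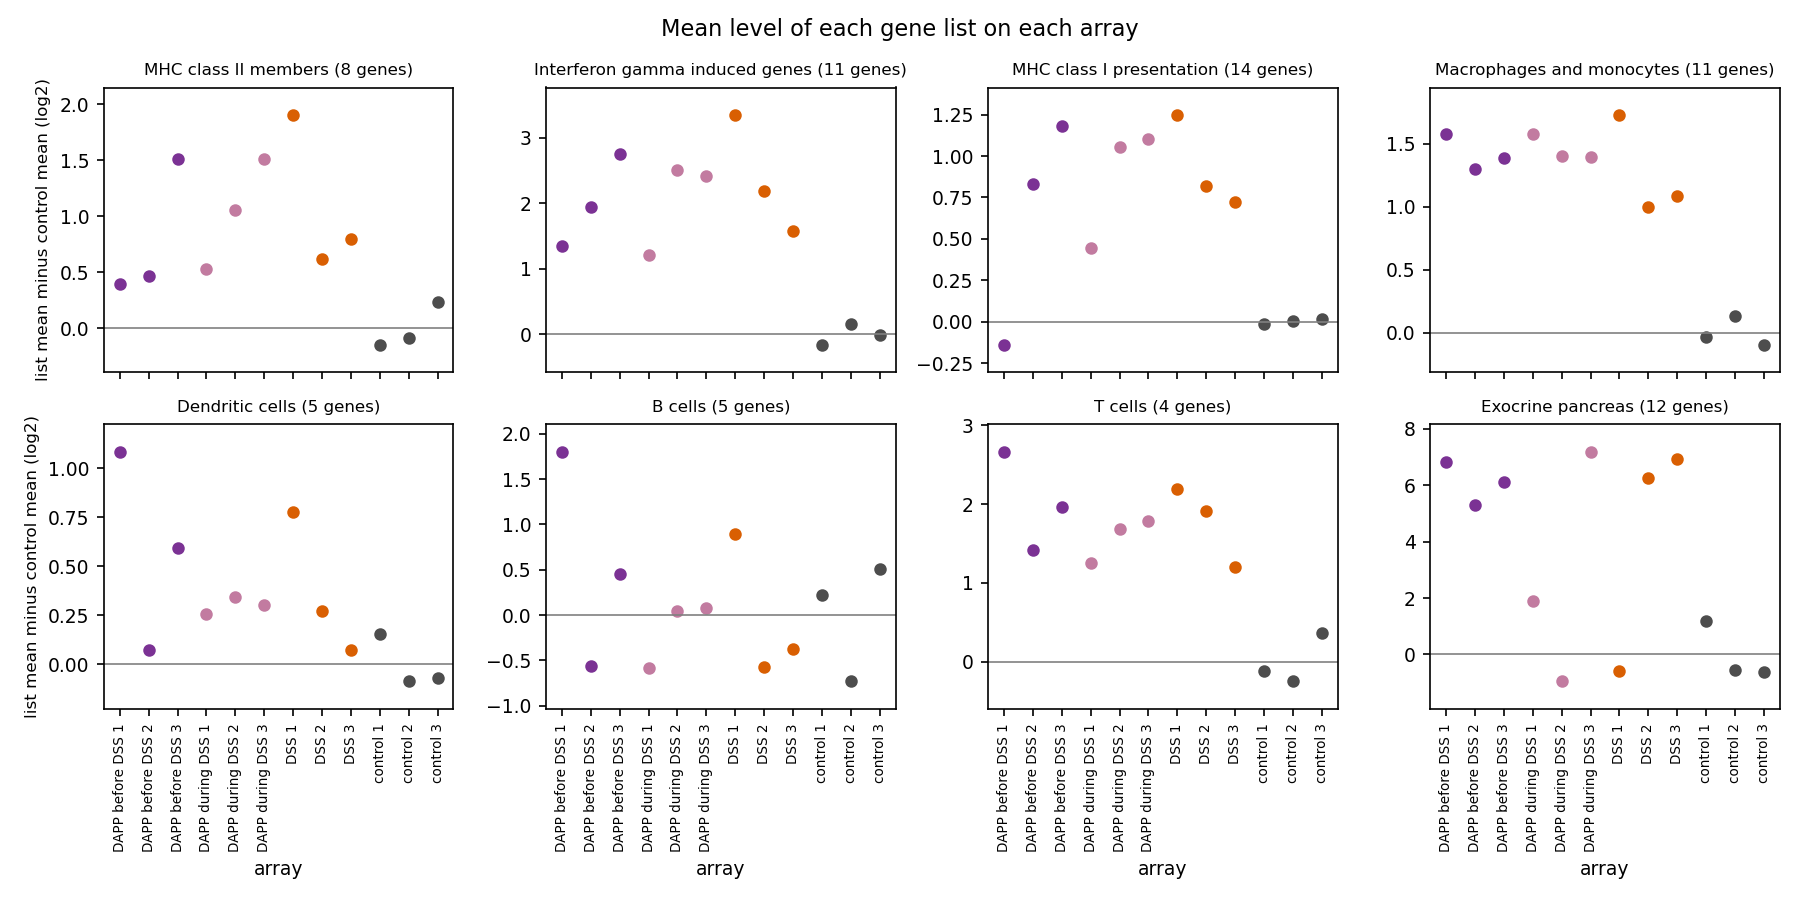
Mean log2 level of 8 gene lists on each array, minus the mean of the control arrays (vertical axis), arrays in order of group (horizontal axis). Macrophage markers lie above control on all 9 arrays of the DSS-exposed groups, B cell markers do not, and the exocrine pancreas list is high on 6 of those arrays and near control on replicate 1 of DSS.

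The genes most like the class II genes across arrays were drawn from 8452 genes detected on all 12 arrays, by the Pearson correlation with the mean of Cd74, H2-Aa, H2-Ab1 and H2-Eb1. The 8 highest outside the members were Gbp2 (0.948), Mif (0.947), Trex1 (0.917), Mlkl (0.914), Psmb8 (0.913), H2-M3 (0.912), Igtp (0.911) and Tap1 (0.911). Of the members outside that mean, H2-DMa reached 0.986, H2-DMb2 0.975 and H2-DMb1 0.942, and Ciita, not detected on all 12 arrays, was not ranked. Of those within it, H2-Ab1 reached 0.981 and H2-Eb1 0.970, while Cd74 at 0.872 and H2-Aa at 0.806 lay below the 8 genes named. Gbp2, an interferon-induced GTPase, read 10.87, 11.83 and 12.85 with DAPP before DSS, 11.15, 12.47 and 12.31 with DAPP during DSS, 13.04, 11.79 and 11.22 with DSS, and 10.40, 10.39 and 10.34 in controls. It was highest on replicate 1 of DSS, and its difference between DSS and control was 1.64 ± 0.54 (SE, limma adjusted p = 0.101). Over 11 arrays, without replicate 1 of DAPP before DSS, the order changed, and Aif1, a macrophage gene, came first at 0.968, followed by Psmb9 at 0.952. These correlations share the 12 arrays and the treatment groups and carry no test.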

How the data were processed

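Colon RNA of 12 samples was measured on Illumina bead arrays, 3 per group, after extraction with Trizol and RNeasy columns and labelling of cRNA, per the labels' protocols. Raw intensities with a detection p-value per probe and array were deposited by the authors, exported with GenomeStudio per the submitters' processing notes, whose version is not given there. The authors' processed table holds linear intensities whose column medians (146.5 to 146.6) are near equal, and it served as an alternative only.

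From the raw intensities, background correction, quantile normalisation and log2 were done with neqc of limma 3.58.1 in R 4.3.3 (offset 16, background inferred from detection p-values). Probes detected (p under 0.05) on at least 3 arrays were kept, 22359 of 45281. Probes with 1 symbol in the platform annotation were named through Entrez IDs, and each of 11933 genes was represented by its probe with the highest mean. A linear model with 4 groups was fitted over all genes with lmFit and eBayes, p-values were adjusted by Benjamini-Hochberg over all genes, and a gene was called under 0.05. All 15 member probes are also given from a fit over all kept probes. An undetected group was given a bound, from the lowest detected signal of each array. The number of arrays limits the precision.

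The members and gene lists were chosen with earlier results of these data known. The text names all members, from each pathway list the genes called in a comparison or, where none was called, the one with the largest difference between DSS and control, and the 8 genes most correlated with the classical chains and Cd74; other genes named, markers of cell types included, are list members chosen after their values were seen. Alternatives covered background correction, offset, normalisation, detection filter, probe choice, samples in the fit, array weights, the replicate number as a block, an exocrine pancreas covariate and each array left out. Same-numbered arrays deviated together with correlations of -0.32 to 0.40 over 18 pairs, 3 of them over 0.1, so the numbers were not taken as pairs. The fit was tested on simulated data.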

Additional observations from a re-analysis of the deposited data

How the results depend on the processing

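Against control, none of the 8 differences changed sign under any alternative in any of the 3 comparisons; the number of members called moved. For DSS against control it was 1, with 2 under array weights, 0 with the exocrine pancreas mean as a covariate and 0 to 2 with 1 array left out. For DAPP before DSS against control it was 1, with 0 without background correction, with an offset of 50, with the authors' processed values, without the detection filter, with the arrays of those 2 groups only and with the pancreas covariate, 2 under array weights, and 0 to 2 with 1 array left out. For DAPP during DSS against control it was 1, with 0 without background correction, with the authors' values, without the filter and with the covariate, 4 with equal medians, 5 with the arrays of those 2 groups only, 8 under array weights, and 0 to 2 with 1 array left out. Over the 15 probes in DSS against control the count was 1, with 0 without background correction or without the filter, and 0 to 4 with 1 array left out, 4 without replicate 1 of DAPP before DSS. These counts are given without the share of all genes called under the same alternative, so they are not read as a result about the members. With equal medians the median of all genes itself moved to 0.38 for DAPP during DSS against control. The cause of these moves was not tested. The counts and gene values without DSS replicate 1 or DAPP before DSS replicate 1 for the gene lists were chosen after seeing the data. With the replicate number as a block, DAPP before DSS against control had 0 members called (H2-DMb1 1.37, limma adjusted p = 0.0506), and DSS and DAPP during DSS against control 1 each; it changed no other member's call. A block for array slide was not run, since no source used here gives slides. Limma called no member between the DAPP groups and DSS, or between the DAPP groups, in any of the 23 alternatives. In every comparison Ciita was tested in 22 of the 23, as it did not pass a stricter detection filter.

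Differences between the exposed groups changed sign in 54 cases over members and alternatives, 37 of them with 1 array left out, and none was called. For DAPP during DSS minus DSS the log2 difference became -0.024 for Ciita without background correction, -0.025 for Ciita with the authors' processed values, 0.32 for Cd74, 0.27 for H2-Ab1, 0.17 for H2-Eb1, 0.19 for H2-DMa, 0.24 for H2-DMb1 and 0.23 for H2-DMb2 with equal medians, 0.011 for Cd74 with the mean of all probes of a gene, 0.060 for Cd74 and 0.013 for H2-Ab1 under array weights, -0.070 for Ciita with the pancreas covariate. With 1 array left out, DAPP during DSS minus DSS ran from -0.19 to 0.26 for Cd74, -0.30 to 0.30 for H2-Ab1, -0.42 to 0.23 for H2-Eb1, -0.46 to 0.23 for H2-DMa, -0.50 to 0.20 for H2-DMb1, -0.48 to 0.30 for H2-DMb2, -0.46 to 0.63 for Ciita and -0.032 to 0.49 for H2-Aa. With 1 array left out, DAPP before DSS minus DSS ran from -0.72 to 0.035 for H2-Ab1, -0.50 to 0.19 for H2-Eb1, -0.72 to 0.088 for H2-DMa, -0.65 to 0.054 for H2-DMb1, -1.02 to 0.12 for Ciita, -0.045 to 0.56 for H2-Aa and -0.89 to 0.035 for Cd74. For DAPP before minus DAPP during DSS the log2 difference became -0.097 for H2-Aa with equal medians, -0.26 for H2-Aa and 0.0076 for H2-Eb1 under array weights, 0.082 for H2-Eb1 and 0.026 for H2-DMa with the pancreas covariate. With 1 array left out, DAPP before minus DAPP during DSS ran from -0.88 to 0.045 for Cd74, -0.30 to 0.39 for H2-Aa, -0.66 to 0.049 for H2-Ab1, -0.34 to 0.23 for H2-Eb1, -0.52 to 0.13 for H2-DMa and -0.46 to 0.17 for H2-DMb1. Scaling to equal medians moved the median of all genes to 0.35 for DAPP during DSS minus DSS, 0.13 for DAPP before DSS minus DSS and -0.22 between the DAPP groups.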
